A study of Mus musculus with 12 samples.

Results

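The genes of the renin-angiotensin system were followed in the left atrium (LA) of mice with Notch activated in cardiomyocytes. The 9 genes were taken by name from the gene table: *Agt*, *Ren1*, *Ace*, *Agtr1a*, *Agtr2*, *Mas1*, *Atp6ap2*, *Lnpep* and *Agtrap*, which are 9 of the 54658 names it holds. All 9 were present, and 7 passed the expression filter of over 1 CPM (a count scaled to library depth) in 6 or more libraries. *Ren1* and *Agtr2* did not pass it. The 6 iNICD mice carried *αMHC-rtTA*, which makes the reverse tetracycline transactivator in cardiomyocytes, together with *tetO-NICD*, which makes the intracellular domain of Notch1 once the transactivator binds doxycycline. The 6 control mice were littermates carrying *αMHC-rtTA* alone. Both groups were on a mixed genetic background, began at 2 to 3 months of age and ate doxycycline chow for 3 weeks with no washout, so the transactivator and the drug were shared by all 12 mice. Controls comprised 4 females and 2 males, and the iNICD group 3 of each sex. One library was made per LA, from whole tissue. The transgene was thus limited to cardiomyocytes, whereas the reads came from every cell type of the atrium, and fewer cells of a type and less RNA per cell cannot be told apart.

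Angiotensinogen, the product of *Agt*, is a secreted serpin made chiefly by the liver and, at lower levels, by other tissues including the heart. Renin cuts angiotensin I from it, and angiotensin-converting enzyme (ACE) trims this to angiotensin II, which raises blood pressure and promotes hypertrophy and fibrosis largely through the type 1 receptor. The type 2 receptor and the Mas receptor, which binds a shorter angiotensin peptide, are generally regarded as opposing these actions. The remaining members bind renin or its precursor (*Atp6ap2*), degrade peptides and bind angiotensin IV (*Lnpep*), or drive the type 1 receptor into the cell (*Agtrap*).

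Library depth ranged from 21432632 to 27182038 counts on genes. A value of 3 counts, used as the floor of detection, corresponded to 0.109 to 0.140 normalized CPM, where normalized CPM are counts scaled to the library total and the TMM factor. *Notch1*, whose count includes reads of the transgene, had 108 to 131 normalized CPM in controls and 2969 to 4069 in iNICD libraries, separating the labelled groups. The atrial cardiomyocyte genes *Myl7*, *Myl4*, *Nppa* and *Sln* were abundant in both groups, and their summed level was 34169 to 43936 normalized CPM in controls against 9250 to 16564 in iNICD libraries, with 4 of 4 called lower at an edgeR adjusted p-value under 0.05, against 1.34% of all names tested. Most of the fall in the sum was *Nppa* (log2 fold change -2.33), with *Myl4* at -0.75, *Sln* at -0.64 and *Myl7* at -0.54, and the call of *Myl7* was kept in 13 of 23 alternative fits. Of 4 ventricular genes, *Myl2* and *Irx4* did not pass the filter, and *Myl3* was at 0.785 to 3.12 normalized CPM. *Myh7* was at 13.1 to 29.6 normalized CPM in control replicates 1 and 2 and iNICD replicates 2 and 6, and at 956 to 2225 in the other 8 libraries, so its level split both groups. No tested marker of ventricular cardiomyocytes, fibroblasts, endothelium, smooth muscle, pericytes, macrophages, epicardium, adipocytes, nerve or red cells passed the threshold between the groups, and the lung epithelial genes did not pass the filter. Although not called, the 3 red cell genes had log2 fold changes of -1.31 to -1.28. Their sum was 46.9 to 220 normalized CPM in controls and 23.1 to 123 in iNICD libraries. The 3 epicardial genes had log2 fold changes of -0.31 to -0.30. Control replicate 5 stood apart from the other controls on the first principal component, at -77.4 against -20.2 to 7.99. It was the highest control for 3 of the 7 tested members (*Ace*, *Atp6ap2* and *Lnpep*) and the lowest for 3 (*Agtr1a*, *Mas1* and *Agtrap*), so their values are also given without it where the result moved.

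Of the 7 members tested, *Agt* was higher in iNICD LA, none was lower, and 6 did not pass the threshold. Among all 13541 names tested, 2.78% were higher and 1.34% were lower with p-values under 0.05 after Benjamini-Hochberg adjustment over the whole table (quasi-likelihood test of edgeR). Among the 7 members the groups were without overlap for *Agt* alone, an arrangement found for 3.83% of all names tested. With 7 genes tested, a single call describes *Agt* and not the set. The median log2 fold change of the 7 was 0.09, against -0.01 over all names tested, and 0.02 without control replicate 5.

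**Figure D1:**
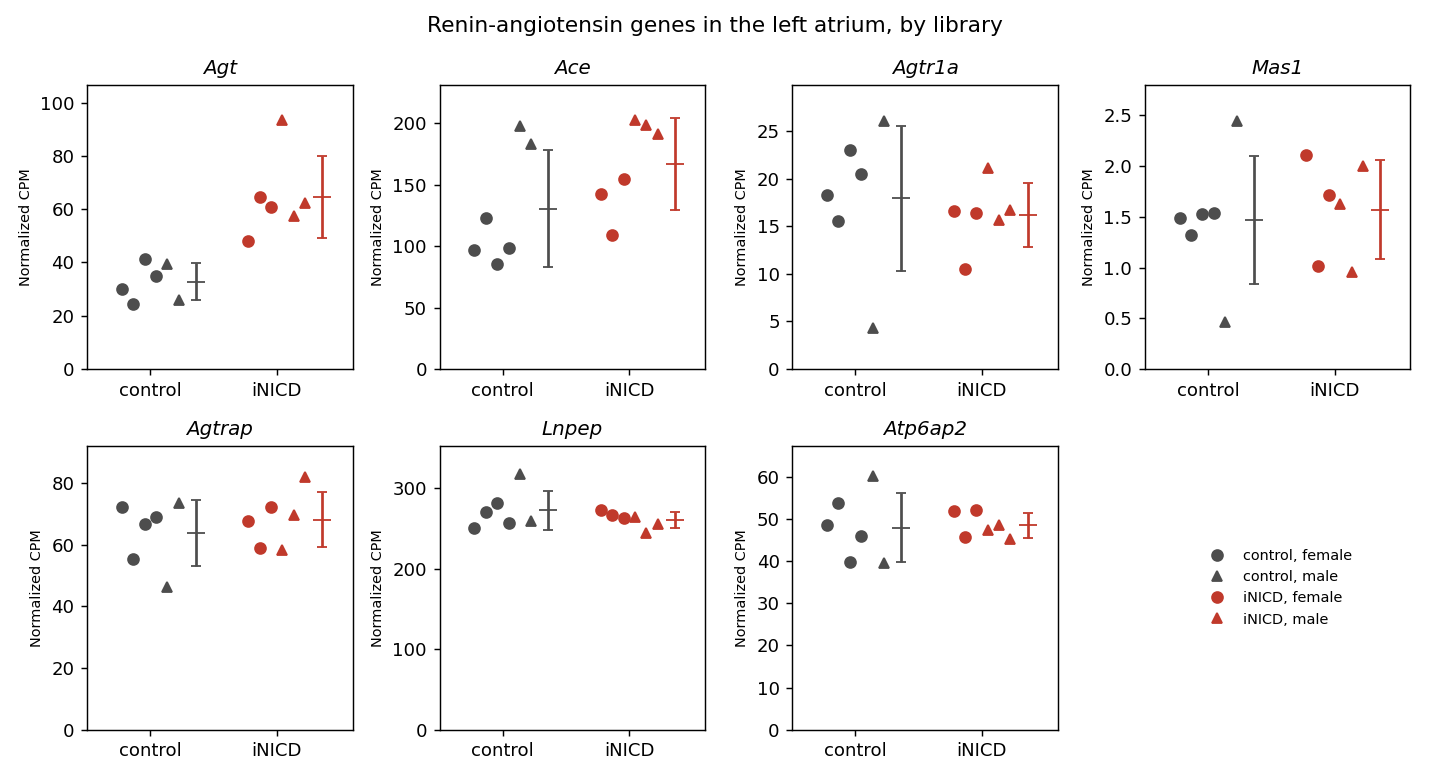
Normalized CPM (vertical axes, each starting at 0) of the 7 tested members in each library of the control (gray) and iNICD (red) groups, with females as circles and males as triangles; the horizontal tick and bar give the mean and SD of 6 libraries. All 6 iNICD libraries of *Agt*, from 47.9 upward, lie above the highest control at 41.2, whereas the groups overlap in the other 6 panels.

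The sequence just upstream of the start site is shown for *Agt*, the member that rose, and for *Ren1* and *Ace*, the enzymes acting after one another on its product, because these 3 were the members with the letters of a TATA box core (TATAAA on either strand) in the 250 bases before a start site. Sequences are from RefSeq on GRCm38.p6, run 5′ to 3′ in the direction of the gene, and end at the base before the start site. A promoter was found for 8 of the 9 members, giving 9 sequences, since *Ace* had 2 start sites. Capitals mark TATAAA (written TTTATA where it lies on the other strand) and CACNAG, a motif called the N-box that Hes repressors can bind.
Agt, chr8:124569707-124569956, minus strand: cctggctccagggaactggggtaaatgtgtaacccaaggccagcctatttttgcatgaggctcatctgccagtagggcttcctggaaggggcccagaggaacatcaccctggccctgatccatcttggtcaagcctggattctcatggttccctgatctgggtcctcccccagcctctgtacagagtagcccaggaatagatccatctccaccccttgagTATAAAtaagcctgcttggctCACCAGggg
Ren1, chr1:133350424-133350673, plus strand: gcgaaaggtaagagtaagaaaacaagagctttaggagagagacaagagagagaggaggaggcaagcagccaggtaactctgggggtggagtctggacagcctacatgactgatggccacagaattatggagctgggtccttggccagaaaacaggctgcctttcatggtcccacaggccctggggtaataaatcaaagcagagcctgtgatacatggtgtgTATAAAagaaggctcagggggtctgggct
Ace, first start site, chr11:105967698-105967947, plus strand: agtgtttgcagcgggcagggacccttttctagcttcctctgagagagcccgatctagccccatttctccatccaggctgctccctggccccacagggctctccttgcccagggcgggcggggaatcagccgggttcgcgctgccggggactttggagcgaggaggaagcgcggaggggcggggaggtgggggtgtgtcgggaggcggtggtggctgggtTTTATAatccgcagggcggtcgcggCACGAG
TATAAA lay at -30 to -25 in *Agt*, at -29 to -24 in *Ren1* and, on the other strand, at -31 to -26 in *Ace*, counting back from the start site with the base before it as -1. These letters occurred in 12.4% of 32851 promoter windows of the same length. CACNAG lay at -9 to -4 in *Agt* and at -6 to -1 in *Ace*, and was also found in *Atp6ap2*; 36.7% of all windows held it. The E-box CACGTG was found in *Agtrap* at -13 to -8, against 6.02% of all windows. TGGGAA, the core bound by RBPJ, the DNA-binding partner of NICD, was in none of the 9 windows and in 21.6% of all windows. The motifs were searched on both strands, no 2 matches in these 9 windows overlapped, and a match or its absence here describes only the letters of that window.

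*Agt* encodes the only known precursor of the angiotensins. It lies on the minus strand at chr8:124556534-124569706 (GRCm38). Control libraries ranged from 24.5 to 41.2 normalized CPM with a median of 32.6, and iNICD libraries from 47.9 to 93.5 with a median of 61.6. Every iNICD library was above every control, and iNICD replicate 4 was the highest. The mean rose from 32.7 ± 6.94 to 64.5 ± 15.4 (SD, n = 6 per group), 1.97 times the control mean. The log2 fold change was 0.98 (SE, the standard error, 0.17, 95% interval 0.62 to 1.34, edgeR adjusted p = 0.00494), and a two-sided exact permutation test of the normalized CPM gave p = 0.00216, the smallest that 6 against 6 libraries allow. Leaving out each of the 12 libraries in turn gave log2 fold changes of 0.84 to 1.06 with the call kept in all 12, and without control replicate 5 the value was 1.04. Among the 377 higher names *Agt* ranked 130 by log2 fold change and 145 by adjusted p-value.

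*Agt* was also compared within each sex. In females, 4 controls had 24.5 to 41.2 normalized CPM and 3 iNICD libraries had 47.9 to 64.7. In males, 2 controls had 26.0 and 39.3 and 3 iNICD libraries had 57.6 to 93.5. The groups did not overlap within either sex, which follows from the absence of overlap over all 12 libraries and adds nothing to it. With females alone the log2 fold change was 0.82 (edgeR adjusted p = 0.0527) and with males alone 1.11 (edgeR adjusted p = 0.652), so neither subset passed the threshold by itself. The log2 fold change was 0.30 greater in males than in females, with a 95% interval of -0.47 to 1.08 (interaction term, edgeR adjusted p = 0.916), which does not show that the sexes responded alike.

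The 4 tested genes nearest to *Agt* on the chromosome did not pass the threshold. *Pgbd5* and *Cog2* on one side had log2 fold changes of 0.29 and 0.02, and *2310022B05Rik* and *Ttc13* on the other of -0.36 and -0.15. Fibroblasts and adipocytes also make angiotensinogen, and no tested marker gene of either passed the threshold. None of the 5 fibroblast genes *Pdgfra*, *Col1a1*, *Dcn*, *Lum* and *Tcf21* was called, and their summed level was 1686 to 2316 normalized CPM in controls and 1761 to 2455 in iNICD libraries. Of the 5 adipocyte genes, *Adipoq* passed the filter without being called, *Plin1*, *Cidec*, *Lep* and *Ucp1* did not pass it, and the sum was 1.59 to 5.77 in controls and 0.642 to 8.13 in iNICD libraries. The fall in atrial cardiomyocyte genes given above moved with the same groups as *Agt*, and its part in the result was not tested.

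After the group mean was removed from each library, the tested names whose log2 CPM followed *Agt* most closely over the 12 libraries were *Col7a1* (Spearman correlation 0.86), *Hist1h4i* (0.86) and *Trabd2b* (0.85). Over the 11 libraries without control replicate 5 they were instead *Gramd4* (0.96), *Gm15912* (0.94) and *Kif5a* (0.87). The names changed entirely with that library, and these likenesses are a description of the highest values among all names tested.

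*Ren1* encodes renin, which is made mainly in the juxtaglomerular cells of the kidney. It lies at chr1:133350510-133360325, plus strand. Single libraries held at most 2 reads, with 2 in control replicate 4, 1 in control replicate 5, 1 in iNICD replicate 4 and 0 in the other 9. Both groups were therefore under the floor of 3 counts in each library, and no fold change is given. Some mouse strains also carry *Ren2*, a near-identical copy, and on a mixed background the source of single reads is uncertain.

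*Ace* encodes the converting enzyme, a protein of the endothelial surface, and lies at chr11:105967945-105989964, plus strand. Controls ranged from 85.2 to 197.6 normalized CPM with a median of 110.7, and iNICD libraries from 108.9 to 203.1 with a median of 173.2. The groups overlapped, with high and low libraries in each. Means were 130.7 ± 48.0 and 166.7 ± 37.6 (SD, n = 6 per group), and the log2 fold change of 0.35 (SE 0.23, 95% interval -0.14 to 0.84) did not pass the threshold (edgeR adjusted p = 0.454, two-sided exact permutation p = 0.169). Without control replicate 5 it was 0.51.

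The spread of *Ace* within each group followed sex, a comparison chosen after the values were seen. The 7 female libraries ranged from 85.2 to 154.7 normalized CPM and the 5 male libraries from 183.1 to 203.1. Every male library was above every female library. Means were 115.7 ± 25.5 in females (SD, n = 7) and 194.9 ± 7.77 in males (SD, n = 5). Among controls alone, 4 females had a mean of 100.9 ± 15.7 (SD) and the 2 males had 183.1 and 197.6. Among iNICD libraries, 3 females had 135.4 ± 23.7 and 3 males 198.0 ± 5.74 (SD). With the group in the model, *Ace* was higher in males by 0.72 on the log2 scale (SE 0.11, 95% interval 0.48 to 0.97, edgeR adjusted p = 0.0220). In the same fit 0.288% of all names tested (39) differed between the sexes, and 1.39% had no overlap between them. DESeq2 called 495 names by sex, *Ace* among them (DESeq2 adjusted p = 2.43e-06). The call was kept in 10 of the 12 fits that left out a library, and the adjusted p was 0.0522 without control replicate 4 and 0.0564 without iNICD replicate 2. None of the other 6 tested members was called by sex.

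Since controls had fewer males than iNICD libraries, the iNICD comparison of *Ace* was also made with sex in the model, which gave a log2 fold change of 0.27 (edgeR adjusted p = 0.196). Within females it was 0.43 (edgeR adjusted p = 0.180), and within males 0.04 (edgeR adjusted p = 0.923). The change was 0.37 lower in males than in females on the log2 scale, with a 95% interval from -0.83 to 0.09, and this difference did not pass the threshold (interaction term, estimate -0.37, edgeR adjusted p = 0.916). None of the 5 endothelial genes *Pecam1*, *Cdh5*, *Kdr*, *Tie1* and *Emcn* was called between the sexes, and their sum was 657 to 815 normalized CPM in females and 621 to 959 in males. The part of endothelial content in the difference of *Ace* by sex was not tested.

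**Figure D2:**
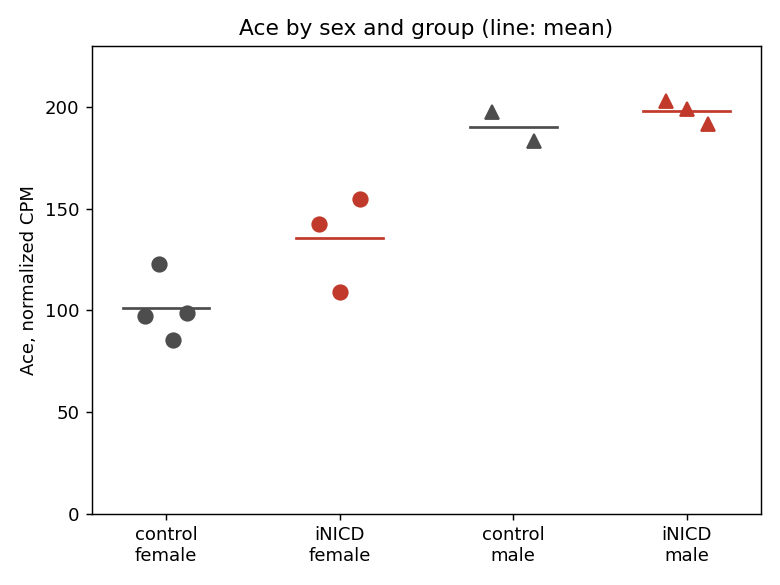
Normalized CPM of *Ace* (vertical axis, starting at 0) in each library by sex and group, with the mean as a line (n = 4 control females, 3 iNICD females, 2 control males and 3 iNICD males). The 5 male libraries lie between 183.1 and 203.1, all above the 7 female libraries, and the iNICD and control males lie close together.

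*Agtr1a* encodes the main type 1 receptor of the mouse, which couples to Gq and mediates most actions of angiotensin II. It lies at chr13:30336441-30382867, plus strand. Controls ranged from 4.30 to 26.1 normalized CPM with a median of 19.4, and iNICD libraries from 10.6 to 21.2 with a median of 16.5. All iNICD libraries lay inside the control range, whose lowest value was control replicate 5, the next control being at 15.6. Means of the 6 libraries were 18.0 ± 7.62 and 16.2 ± 3.38 (SD), with a log2 fold change of -0.15 (SE 0.31, 95% interval -0.83 to 0.53, edgeR adjusted p = 0.845). Without control replicate 5 it was -0.35 (edgeR adjusted p = 0.258). The type 1 receptor of the other locus, *Agtr1b*, had 1 read in all 12 libraries together.

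*Agtr2* encodes the type 2 receptor, prominent in fetal tissue and sparse in the adult heart. It lies at chrX:21484544-21489164, plus strand. There were 2 reads in control replicate 4 and 0 in the other controls. In iNICD libraries there were 3 reads in replicates 3 and 6, 1 in replicates 4 and 5, and 0 in replicates 1 and 2. No library was above the floor of 3 counts, so the difference between 2 reads in all controls and 8 in all iNICD libraries was not given as a fold change. A fit without an expression filter, over 29835 names, gave an edgeR adjusted p of 0.550.

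*Mas1* encodes the Mas receptor and lies at chr17:12841079-12868143, minus strand. Controls ranged from 0.467 to 2.45 normalized CPM with a median of 1.51, and iNICD libraries from 0.959 to 2.11 with a median of 1.67. The groups overlapped throughout. The difference was 0.10 on the log2 scale (SE 0.32, 95% interval -0.59 to 0.79, edgeR adjusted p = 0.900), and it changed sign to -0.078 without control replicate 5. *Mas1* had 10 to 53 counts per library, whereas *Airn*, a long noncoding RNA read from the opposite strand of the same region, had a mean of 279.5 counts. The strand setting of the counting is not given in the sources used here, so reads of *Airn* in the *Mas1* count cannot be told apart from its own.

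*Atp6ap2* encodes the (pro)renin receptor, which is also an accessory subunit of the vacuolar proton pump (V-ATPase), and lies at chrX:12587801-12617049, plus strand. Controls ranged from 39.5 to 60.3 normalized CPM with a median of 47.3, and iNICD libraries from 45.4 to 52.3 with a median of 48.0. The iNICD libraries lay inside the control range. Its log2 fold change was 0.02 (SE 0.10, 95% interval -0.20 to 0.24, edgeR adjusted p = 0.951), and 0.092 without control replicate 5.

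*Lnpep* encodes the insulin-regulated aminopeptidase, the binding site of angiotensin IV, and lies at chr17:17521410-17625050, minus strand. Controls ranged from 250.6 to 317.1 normalized CPM with a median of 265.3, and iNICD libraries from 244.1 to 272.8 with a median of 263.8. Of the 7 tested members it had the tightest interval of the log2 fold change: -0.06 (SE 0.06, 95% interval -0.20 to 0.076, edgeR adjusted p = 0.652). Leaving out control replicate 5 gave -0.015.

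*Agtrap* encodes a membrane protein that binds the tail of the type 1 receptor and lowers its number at the cell surface, and lies at chr4:148077061-148088031, minus strand. Controls ranged from 46.1 to 73.4 normalized CPM with a median of 67.8, and iNICD libraries from 58.3 to 81.9 with a median of 68.5. The groups overlapped, although iNICD replicate 6 was above all controls. Its log2 fold change was 0.09 (SE 0.12, 95% interval -0.17 to 0.36, edgeR adjusted p = 0.729), and 0.016 without control replicate 5.

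**Figure D3:**
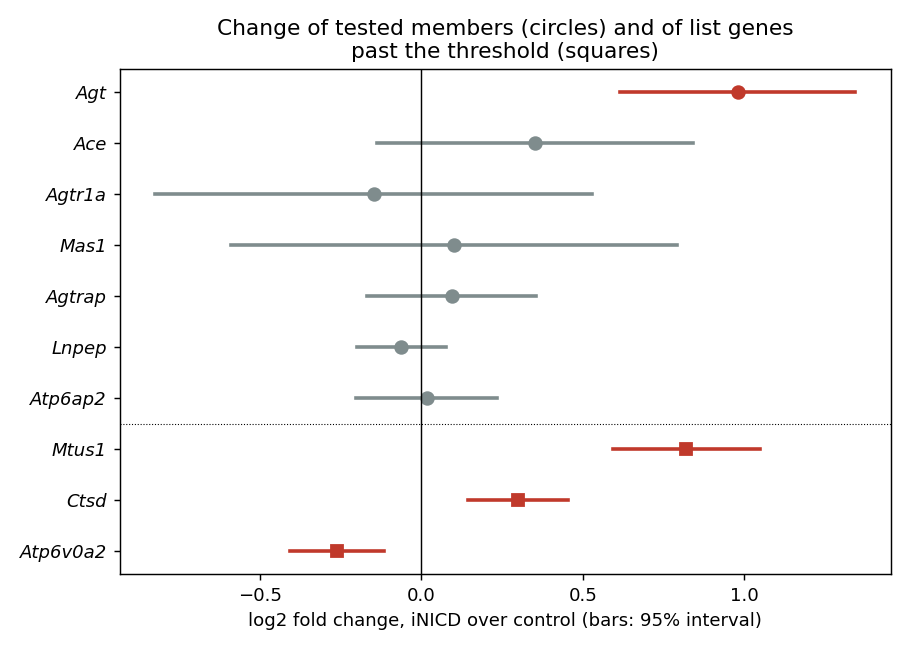
Log2 fold change of iNICD over control (horizontal axis) with its 95% interval for the 7 tested members (circles) and for the 3 genes of the wider pathway lists that passed the threshold (squares), red where the adjusted p-value was under 0.05. The interval of *Agt* lies between 0.62 and 1.34, and those of the other 6 members cross 0.

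Levels of different genes were compared as normalized CPM per kilobase of gene length. In controls the order of the mean levels per kilobase was *Ace* at 24.7, *Lnpep* at 19.3, *Atp6ap2* at 18.3, *Agt* at 17.3, *Agtrap* at 15.1, *Agtr1a* at 6.45, *Mas1* at 0.559, *Ren1* at 0.0126 and *Agtr2* at 0.00395. Over the 6 control libraries each of the first 4 overlapped the gene after it, so neighbours among the first 5 are not resolved, although every *Lnpep* value (lowest 17.7) was above every *Agtrap* value (highest 17.3). *Agtr1a*, *Mas1* and *Ren1* were each below every library of the gene before them. *Ren1* and *Agtr2* were not separated. The converting enzyme was thus 3.83 times the type 1 receptor per kilobase. In iNICD libraries the level per kilobase was 34.1 ± 8.13 for *Agt* and 31.5 ± 7.11 for *Ace* (SD, n = 6), values that overlap. In controls *Agt* was above 82.4% of all names tested per kilobase, *Agtr1a* above 57.7% and *Mas1* above 8.01%.

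Other receptors and receptor-binding proteins of the pathway were described from a list of 7 genes, of which 4 were tested, 1 rose and none fell. Among all names tested 2.78% were higher, and 1 call among 4 describes *Mtus1* and not the list. *Mtus1* encodes a family of proteins that bind the tail of the type 2 receptor and microtubules. It ranged from 161.4 to 268.4 normalized CPM in controls with a median of 244.8, and from 385.6 to 454.6 in iNICD libraries with a median of 409.8. The groups were far apart, and the lowest control was replicate 5. Its mean rose from 234.8 ± 38.0 to 414.5 ± 23.2 (SD, n = 6 per group), or 0.82 on the log2 scale (SE 0.11, 95% interval 0.59 to 1.05, edgeR adjusted p = 0.000552). The call was kept in all 12 fits that left out a library. *Agtr2*, whose product it binds, was at or under the floor in the same libraries. *Arap1*, a regulator of small GTPases, had a log2 fold change of 0.01 (SE 0.08), *Aplnr*, the apelin receptor, of 0.55 (SE 0.32), and *Apln*, its ligand, of -0.90 (SE 0.45). These 3 did not pass the threshold. The median of the 4 was 0.28 and 0.17 without control replicate 5, against -0.01 for all names tested.

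Of 19 other peptidases that form or cleave angiotensins, 13 were tested, 1 rose and none fell, and the median log2 fold change was 0.02. Among all names tested 2.78% were higher, and 1 call among 13 describes that gene and not the list. *Ctsd* encodes cathepsin D, a lysosomal aspartic protease related to renin that can release angiotensin I from angiotensinogen in vitro. Controls ranged from 380.2 to 438.8 normalized CPM with a median of 411.9, and iNICD libraries from 439.0 to 576.9 with a median of 497.4. The groups touched without overlapping. The log2 fold change was 0.30 (SE 0.07, edgeR adjusted p = 0.0327), and the call was kept in only 4 of the 12 fits that left out a library. The most abundant peptidases not called were *Ece1* (log2 fold change -0.24, SE 0.15), the endothelin-converting enzyme, *Ctsa* (-0.03, SE 0.07), which cleaves angiotensin I at its carboxyl end, and *Prep* (0.06, SE 0.07), a prolyl endopeptidase.

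Chymases convert angiotensin I to angiotensin II without ACE and are stored in mast cells, so the mast cell genes are given by library. *Mcpt4*, a mouse chymase with this activity, was on the mast cell marker list and not on the peptidase list. Its counts were 28, 7, 7, 5, 7 and 0 in control replicates 1 to 6, and 162, 77, 234, 85, 68 and 122 in iNICD replicates 1 to 6. Every iNICD library was above every control. Mean normalized CPM rose from 0.371 ± 0.402 to 4.92 ± 2.25 (SD, n = 6 each), or 3.70 on the log2 scale (SE 0.57, edgeR adjusted p = 0.00210). The rise was called in all 12 fits leaving out a library. Among the 377 higher names *Mcpt4* ranked 12 by log2 fold change and 105 by adjusted p-value. Control replicate 1 had 1.16 normalized CPM and the other controls 0 to 0.327, so *Mcpt4* passed the expression filter through its iNICD libraries. The size of the fold rests on few control reads, and it was 4.48 on the log2 scale without control replicate 1.

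Counts of the other mast cell genes overlapped between the groups or were 0. *Cma1*, another chymase, had 3 to 16 counts in controls and 0 to 17 in iNICD libraries, *Cpa3*, the mast cell carboxypeptidase, had 1 to 14 and 3 to 11, and *Tpsb2*, a tryptase, had 2 to 11 and 0 to 15. *Ctsg*, cathepsin G, had 0 counts in all 12 libraries, which allows at most 0.140 normalized CPM in any of them, a limit that covers counting error only. *Kit*, the stem cell factor receptor, had a log2 fold change of 0.20 (SE 0.20, edgeR adjusted p = 0.645), and *Hdc*, which makes histamine, of -0.78 (SE 0.25, edgeR adjusted p = 0.112). Of the 4 markers on the list (*Kit*, *Mcpt4*, *Tpsb2* and *Hdc*), 3 were tested and 1 rose, against 2.78% of all names tested, and their summed level was 9.95 to 13.6 normalized CPM in controls and 12.3 to 20.1 in iNICD libraries. The marker that rose, *Mcpt4*, was tested only through its iNICD libraries, so this tally counts the rise that admitted it and is a description only. The set of genes shown by library was chosen after the rise of *Mcpt4* was seen.

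**Figure D4:**
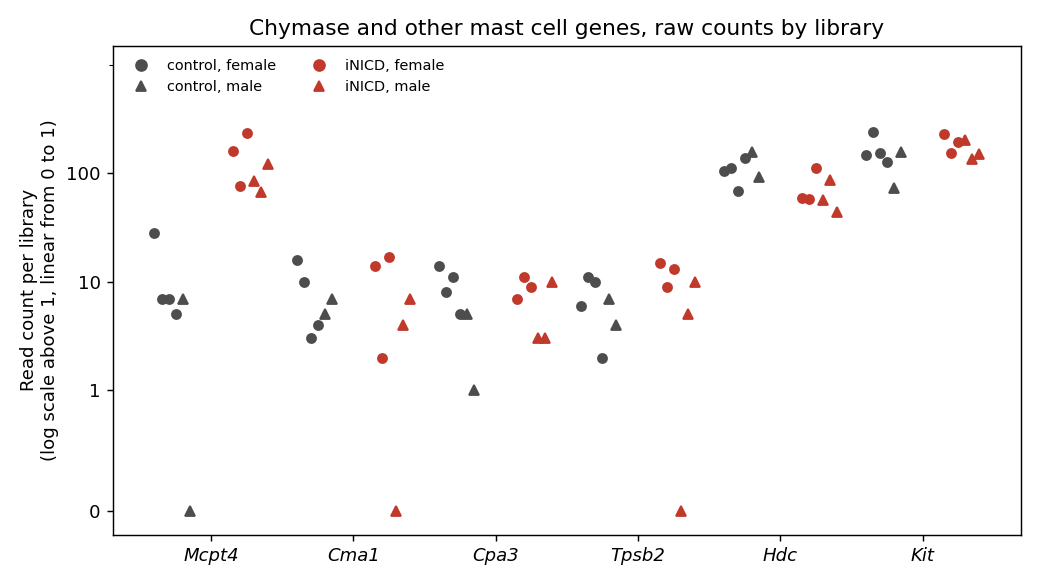
Raw read counts per library (vertical axis, logarithmic above 1 and linear from 0 to 1) of *Mcpt4* and 5 other mast cell genes in control (gray) and iNICD (red) libraries, with females as circles and males as triangles. *Mcpt4* lies at 68 to 234 counts in iNICD libraries and 0 to 28 in controls, whereas the 2 groups overlap for the other 5 genes.

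*Lnpep* belongs to the M1 family of zinc aminopeptidases, several of which trim angiotensins. Of the 11 names listed for its relatives 10 were in the table, all 10 were tested, and none passed the threshold. Their log2 fold changes ran from -0.25 to 0.45 with a median of 0.06. The most abundant were *Npepps* (0.01, SE 0.07), *Rnpepl1* (-0.09, SE 0.08) and *2010111I01Rik* (-0.25, SE 0.27), the last an older name of *Aopep*.

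The V-ATPase acidifies endosomes and lysosomes, and the product of *Atp6ap2* is needed for its assembly. Of 25 other subunits and accessory proteins, 19 were tested, none rose and 1 fell, and the median log2 fold change was -0.06. Among all names tested 1.34% were lower, and 1 call among 19 describes that gene and not the list. *Atp6v0a2*, a membrane subunit of the Golgi and endosomes, ranged from 117.1 to 150.5 normalized CPM in controls with a median of 136.6, and from 104.5 to 121.8 in iNICD libraries with a median of 115.2. The ranges overlapped. The log2 fold change was -0.26 (SE 0.07, edgeR adjusted p = 0.0492), and the call was kept in 2 of the 12 fits that left out a library. The most abundant of those not called were *Atp6ap1* (log2 fold change -0.09, SE 0.06), an accessory subunit, *Atp6v0a1* (-0.08, SE 0.07), a membrane subunit, and *Atp6v1e1* (-0.00071, SE 0.06), a stalk subunit.

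All 18 genes listed for signaling from the type 1 receptor, comprising G protein subunits, phospholipases, calcium-release channels, protein kinase C forms, arrestins, receptor kinases and *Jak2*, were tested and none passed the threshold, with log2 fold changes of -0.34 to 0.43 and a median of 0.07. *Gnai2* (0.05, SE 0.05) and *Gna12* (-0.11, SE 0.11), which encode G protein subunits, and *Arrb1* (0.08, SE 0.09), which encodes an arrestin, were the most abundant.

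Angiotensin II also drives aldosterone release from the adrenal gland, and 12 genes of the mineralocorticoid axis were listed. Of these 7 were tested and none passed the threshold, with log2 fold changes of -1.03 to 0.56 and a median of -0.04, or -0.14 without control replicate 5. The lowest was *Fkbp5*, with 2631 counts in control replicate 5 against 532 to 832 in the other controls. The most abundant were *Tsc22d3* (-0.04, SE 0.20) and *Per1* (-0.39, SE 0.27), both induced by corticosteroids, and *Nr3c1* (0.04, SE 0.09), the glucocorticoid receptor. The adrenal enzymes *Cyp11b1*, *Cyp11b2* and *Cyp21a1* had 0 counts in all 12 libraries. Of 9 genes of the kallikrein-kinin system, whose bradykinin is a substrate of ACE, *Cpm* alone passed the filter, with a log2 fold change of -0.26 (SE 0.19), and it was not called.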

How the data were processed

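RNA from the left atria of 6 control and 6 iNICD mice was sequenced after ribosomal RNA removal with stranded single-end reads, and the authors deposited raw counts per gene name without normalization. The submitters' processing notes list cutadapt, STAR 2.4.2a, Subread, featureCounts, edgeR and mm10. The study's methods describe both STAR with featureCounts and TopHat2 with HTSeq for the LA, and the deposited table does not name its route. The deposited table also holds a gene length in bases, a unit of its own, which equalled the exon union of GENCODE M21 (GRCm38) for all 9 members. Right atrial and human data were not analysed here.

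Group, replicate and sex came from the sample titles and descriptions. The 13541 names over 1 CPM in 6 or more libraries entered the main comparison, made two-sided with the quasi-likelihood test (edgeR 4.0.16, R 4.3.3) after TMM scaling, with Benjamini-Hochberg adjustment over all names and a threshold of 0.05. Standard errors and 95% intervals came from the F statistic. Fits on part of the libraries kept the same names. Exact permutation of the libraries was used beside it for single genes. Tables and motifs were made with Python 3.11.15. The members and the pathway and marker lists were chosen with earlier results of these data known. Named genes are all 9 members, list genes past the threshold, up to 3 others of highest mean CPM per list, and the 3 closest to *Agt* by Spearman correlation with and without control replicate 5. *Agtr1b*, the adrenal enzymes, the mast cell genes by library and the sex comparison of *Ace* were added after their values were seen. A gene of the peptidase list is not reported here by name. Lists share *Enpep*, *Anpep*, *Rnpep* and *Klk1*.

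Depth was 21432632 to 27182038 counts per library. No library was a copy of another in its group, the lowest chi-square per gene being 16.7. On simulated counts of 13541 genes with 200 changed 2-fold between 6 and 6 libraries, edgeR's quasi-likelihood test recovered 83% with 5.68% of its calls false, edgeR's exact test 89% with 9.18%, and DESeq2 1.42.0 89% with 12.7%. Alternatives were DESeq2, the exact test, RLE scaling, library totals alone, no filter, filterByExpr, sex as covariate, each sex alone, a replicate block under either numbering and each library left out.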

Additional observations from a re-analysis of the deposited data

Results flagged for a closer look

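Samples far from the others of their group were looked for in 30 groups of 6 libraries, and 3 were found, where chance gives about 1 group in 20, or 1.5 of 30. *Agt* in iNICD replicate 4 was 93.5 normalized CPM against 47.9 to 64.7 in the other 5 iNICD libraries; without it the log2 fold change was 0.84 (edgeR adjusted p = 0.00694). *Mtus1* in control replicate 5, the library that stood apart on the first principal component, was 161 normalized CPM against 235 to 268 in the other 5 controls. *Mcpt4* in control replicate 1 was 1.16 normalized CPM against 0 to 0.327 in the other 5 controls; without it the log2 fold change was 4.48 (edgeR adjusted p = 0.000381) against 3.70 with it.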

How the results depend on the processing

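Each result of the iNICD comparison was recomputed under 23 alternatives, and *Ace* by sex under DESeq2 and with each library left out. *Agt* kept its direction in all 23 and its call in 21, the exceptions being females only (0.82) and males only (1.11), in which 0 members were called. Leaving out a library gave 0.84 to 1.06 for *Agt*, and 0.65 to 0.79 for *Ace* in males over females. Of the 161 values of the 7 members, 8 changed sign, none at an adjusted p-value under 0.05: with males only *Agtr1a* was 0.22 and *Atp6ap2* -0.10, with females only *Lnpep* was 0.015, and with a library left out *Mas1* ranged from -0.078 (without control replicate 5) to 0.30 and *Atp6ap2* from -0.033 to 0.092.

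Over all names, higher genes numbered 377, with 615 by DESeq2, 8 in males only and 273 to 495 with a library left out. Lower genes numbered 181, with 444 by DESeq2, 280 by the exact test, 0 in males only and 92 to 304 with a library left out (304 without control replicate 5, 92 without iNICD replicate 1, 101 without control replicate 4, 109 without iNICD replicate 4, 112 without control replicate 1, 116 without iNICD replicate 3). The receptor list had 0 calls in males only. The peptidase list had 0 with no filter, in either sex alone, under both blocks, and 0 to 1 with a library left out. The V-ATPase list had 2 by DESeq2 and with sex as covariate (the second *Atp6v1g2*, higher), 0 by the exact test, with library totals, with no filter for the genes tested otherwise, in either sex alone and with the description number as block, and 0 to 1 with a library left out (without iNICD replicate 5 the call was *Atp6v1g2* and not *Atp6v0a2*). The signaling list had 1 with sex as covariate (*Plcb1*) and 0 to 1 with a library left out (*Gnaq* without iNICD replicate 6). The mineralocorticoid list had 1 by DESeq2 and the exact test (*Sgk1*, lower in iNICD), 1 with sex as covariate and with the replicate block (*Fkbp5*), and 0 to 1 with a library left out (*Sgk1* without control replicate 6). The cause of these shifts was not tested. No sex by genotype interaction was called by edgeR, and 501 of 13541 names, under 5% of them, had an unadjusted p under 0.05. DESeq2 was not run for the interaction.

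Same-numbered libraries deviated from their group means with correlations across genes of -0.15 to 0.37. Differently numbered libraries were not compared in this way, so whether the numbers pair the libraries was not settled. With the replicate number as a block 332 names were higher, 136 lower, and *Agt* was 0.98 (edgeR adjusted p = 0.0138); with the description number 285 and 136, and 0.98 (edgeR adjusted p = 0.00783). Genes at or under the floor of 3 counts, as *Ren1* and *Agtr2*, could not be compared at this depth.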

Other observations

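*Atp6ap1l*, named as a relative of the V-ATPase accessory gene *Atp6ap1*, did not pass the expression filter. Control replicates 1 to 6 had 1, 0, 2, 0, 0 and 1 counts, and iNICD replicates 1 to 6 had 27, 0, 21, 16, 7 and 12. The counts were above every control in 5 of the 6 iNICD libraries, and iNICD replicate 2 had none. In the fit without a filter, over 29835 names, the log2 fold change was 4.05 (edgeR adjusted p = 0.0166), a size that depends on the prior count because all controls were under the floor of 3 counts. It was noticed after its values were seen.

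*Hsd11b1*, which regenerates active glucocorticoid inside cells, had the same arrangement by sex as *Ace*. The 7 female libraries ranged from 4.26 to 8.10 normalized CPM and the 5 male libraries from 13.7 to 17.9, with males higher by 1.43 on the log2 scale (standard error 0.14, edgeR adjusted p = 0.000881). It was chosen after its values were seen, from the 39 names that differed between the sexes.

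*Igf2r*, the second tested gene before *Mas1* on chr17, whose imprinting the antisense RNA *Airn* controls, was higher in iNICD libraries by 0.49 on the log2 scale (standard error 0.08, edgeR adjusted p = 0.00492). *Gm16574*, between the other two, was at 0.59 (standard error 0.21, edgeR adjusted p = 0.155) and *Mas1* at 0.10 (standard error 0.32). The differences between these values were not tested.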
